A study of Mus musculus with 6 samples.

Results

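Transcripts of 10 genes of the Notch pathway were followed in C2C12 myotubes: the receptors Notch1, Notch2 and Notch3, the ligands Dll1, Jag1 and Jag2, the DNA-binding factor Rbpj, and the HES and HEY family genes Hes1, Hes6 and Heyl. The members were taken by gene name from a deposited expression table of 49592 genes, and all 10 were found, with 1 entry each. C2C12 is an established line of mouse myoblasts, which stop dividing and fuse into multinucleated myotubes once serum is lowered. Cultures were differentiated for 3 days in 2% HS and then kept for another 12 h, either with TWEAK at 10 ng/ml (3 libraries) or without it (3 untreated libraries). TWEAK is a cytokine of the TNF superfamily that signals through the receptor Fn14 and, per the series title, was studied here for its part in myoblast fusion. Poly(A)-enriched RNA was sequenced, and both groups carry a trial number from 1 to 3. Nothing in the labels says whether trials were separate cultures, and p-values here thus reflect only how these libraries vary, which may be technical. C2C12 is a single line of myoblast origin kept without nerve, vessels or other muscle cells.

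Notch signalling passes between neighbouring cells. A DLL or JAG ligand on one cell pulls on a NOTCH receptor on the next, ADAM proteases and gamma-secretase then cut the receptor, and its released intracellular domain joins RBPJ on DNA and turns RBPJ from a repressor into an activator of HES and HEY genes. In mouse muscle the pathway keeps satellite cells and other progenitors undifferentiated, and its activity is lost as myoblasts differentiate and fuse. The HES and HEY proteins are themselves repressors. Hes6 is the exception among the members: it is known to counteract Hes1 and to favour differentiation, and it is not a classical Notch-induced gene.

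After 12 h of TWEAK, 4 of the 10 members fell and 1 rose. Heyl and Notch1 were 1.97-fold and 1.66-fold lower in mean level, Hes6 and Dll1 were 1.28-fold and 1.22-fold lower, and Rbpj was 1.35-fold higher. These calls were made by limma-trend on log2(FPKM + 1), with Benjamini-Hochberg adjustment over 12770 genes at a threshold of 0.05. FPKM scales reads by gene length and by depth. In the same test 15.1% of all genes were called: 6.10% of all genes lower and 8.98% higher with TWEAK. The other 5 members did not pass, and 3 of them, Notch2, Notch3 and Hes1, were lower with TWEAK in 3 of 3 trials. Of all tested genes 27.5% were lower in every trial, and 7 members were. Libraries of the groups did not overlap for 6 members, 5 lower and 1 higher with TWEAK, and for 35.9% of all tested genes, 15.9% lower and 20.0% higher. When trial entered the same model as a replicate block, 7 members were called lower and 1 higher, against 12.5% and 15.4% of all genes, or 27.9% in both directions. The median log2 fold change of the members was -0.27, and that of all tested genes was 0.01. The 6 libraries held 29706902 to 40593451 reads recovered from the values, and each member had between 234 and 8616 reads in each library. In bulk RNA, fewer cells of a type and less RNA per cell cannot be told apart.

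**Figure D1:**
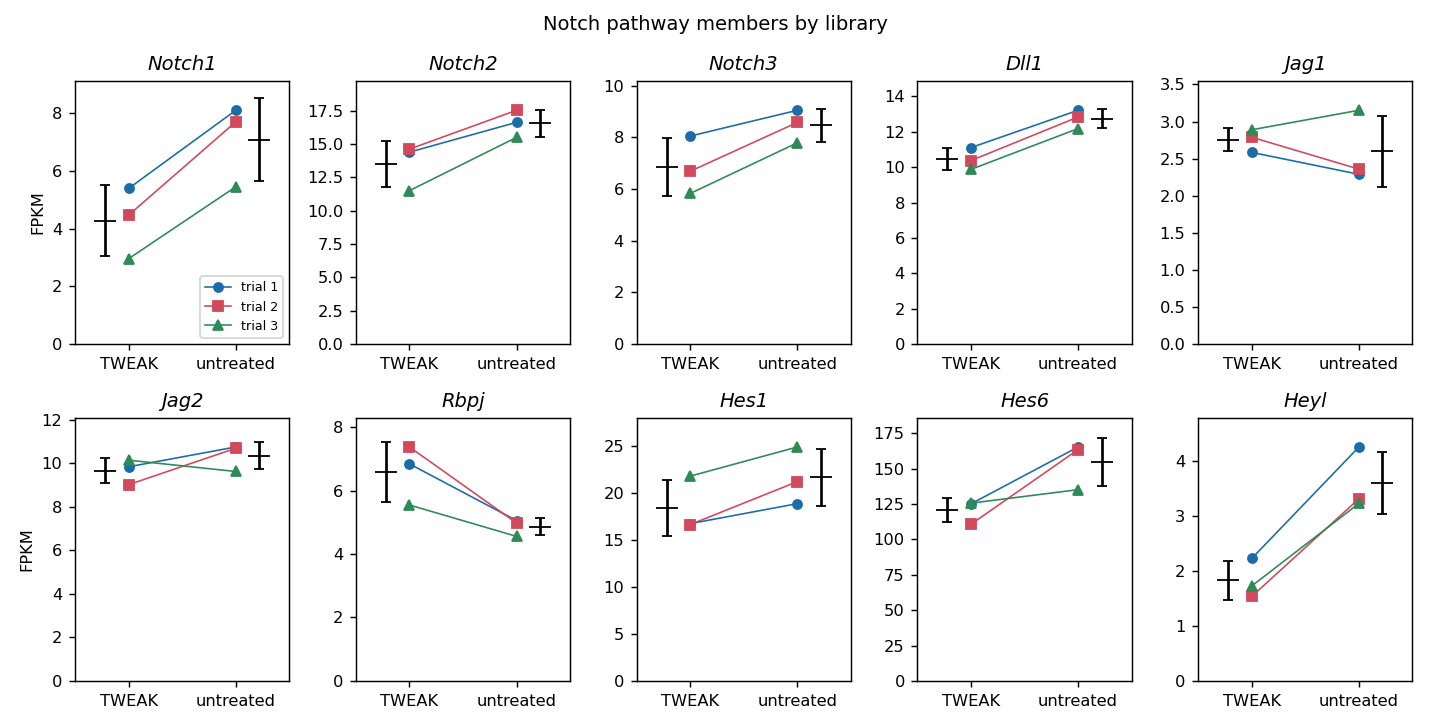
FPKM of each member (vertical axis, starting at 0) in TWEAK and untreated libraries (horizontal axis); points are libraries, coloured and joined by trial number, and black bars give the mean ± SD of 3 libraries. Lines of Heyl, Notch1, Notch2, Notch3, Dll1, Hes1 and Hes6 run lower on the TWEAK side in 3 of 3 trials, and the Rbpj lines run higher.

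Across all tested genes, the difference between the groups varied with gene length, which was recovered from the FPKM. The median log2 fold change was 0.07 for the 2169 genes of 1000 to 2000 bases and -0.14 for the 648 genes above 8000 bases, of which 10.3% fell and 1.85% rose. TWEAK replicate 3 departed most: its genes above 8000 bases had a median deviation of -0.21 from the gene mean on the log2(FPKM + 1) scale, against 0.02 in TWEAK replicate 1 and -0.02 in TWEAK replicate 2. The untreated libraries stood at 0.10, 0.07 and 0.04, each above every TWEAK library. For such long genes the trend with length and the treatment thus cannot be told apart, and removing the trend may also remove a treatment difference. Notch1, Notch2 and Notch3, at 9488, 10500 and 8016 bases, lie in that range, whereas the other members have between 1468 and 5612 bases. Each member is also given after removal of each library's own trend with gene length, a setting chosen after seeing the data. With that adjustment limma-trend called 3 members lower (6.44% of all genes) and 1 higher (8.70%), out of 15.1% called in all. With the adjustment and the replicate block together it called 5 lower (13.4% of all genes) and 1 higher (14.8%), out of 28.1% called in all.

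**Figure D2:**
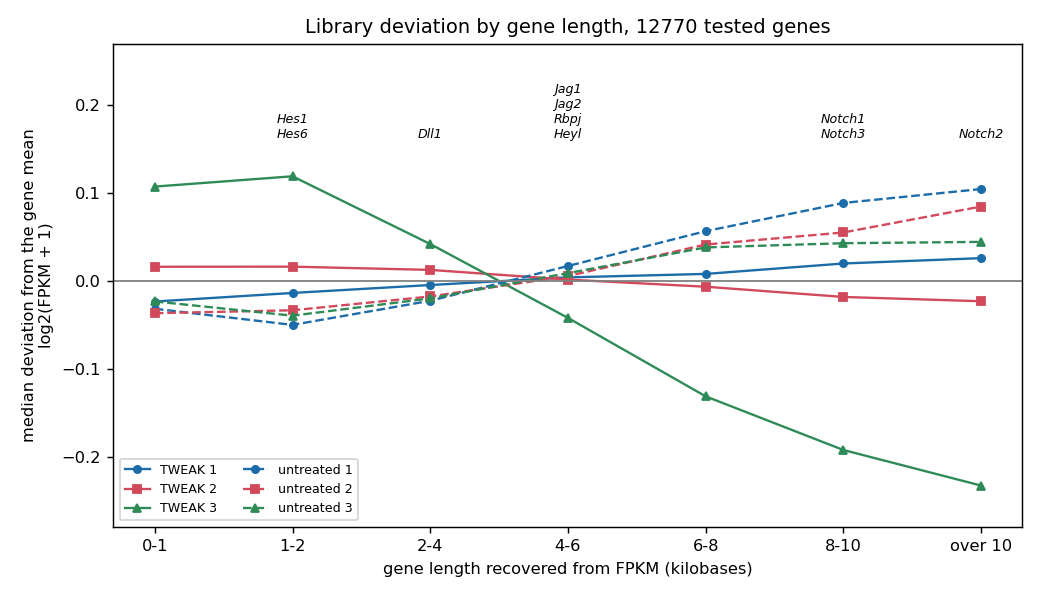
Median deviation of each library from the gene mean on the log2(FPKM + 1) scale (vertical axis) for the 12770 tested genes in bins of gene length in kilobases (horizontal axis), with the members named above their bins; solid lines are TWEAK libraries and dashed lines untreated ones. TWEAK replicate 3 reaches -0.19 between 8 and 10 kilobases and -0.23 above 10, while the 3 untreated libraries lie above 0 there.

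Among the receptors Notch1 fell, and Notch2 and Notch3, with 1.23-fold and 1.24-fold lower means, did not pass. Notch1, which with Notch2 keeps mouse satellite cells quiescent (GRCm39 chromosome 2, 26347915 to 26406675), had 5.39, 4.47 and 2.96 FPKM in TWEAK replicates 1, 2 and 3, against 8.10, 7.70 and 5.45 FPKM in untreated replicates 1, 2 and 3. The groups did not overlap, but the highest TWEAK library stood just under the lowest untreated one, and trial 3 was the lowest in both groups. The log2 fold change was -0.63 (SE 0.18, limma adjusted p = 0.0470). By trial it was -0.51, -0.67 and -0.70, and the block model gave a limma adjusted p of 3.18e-05. After the length adjustment it was -0.50 (limma adjusted p = 0.0548, and 0.000246 with the block). Without TWEAK replicate 2 or 3 or untreated replicate 1 or 2 Notch1 did not pass (limma adjusted p = 0.0996, 0.0996, 0.142 and 0.155).

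Notch2 (chromosome 3, 97920854 to 98057677) was the most abundant receptor transcript per length. It had 14.4, 14.6 and 11.5 FPKM in the TWEAK libraries, against 16.6, 17.5 and 15.5 FPKM in the untreated ones. The groups did not overlap, and TWEAK replicate 3 was the lowest of all. Its log2 fold change was -0.28 (SE 0.10). The limma adjusted p was 0.0817, and it was 0.00647 in the block model. After the length adjustment the log2 fold change was -0.14, with limma adjusted p values of 0.192 and, with the block, 0.0794.

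Notch3, whose loss enlarges the pool of muscle progenitors in mice (chromosome 17, 32339794 to 32385826), had 8.05, 6.69 and 5.83 FPKM in the TWEAK libraries, against 9.05, 8.57 and 7.79 FPKM in the untreated ones. TWEAK replicate 1 lay above untreated replicate 3, so the groups overlapped. The difference was -0.28 on the log2(FPKM + 1) scale (SE 0.11). Its limma adjusted p was 0.116, and 0.0102 in the block model. The difference was -0.17 after the length adjustment, with limma adjusted p values of 0.205 and, with the block, 0.0602. The 3 receptors summed to 24.6 ± 3.90 FPKM with TWEAK and 32.1 ± 2.91 FPKM without (SD, n = 3 per group). Notch1 made up 17.1% ± 2.40 of that sum in TWEAK libraries and 21.9% ± 2.62 in untreated ones, ranges that overlapped (14.6% to 19.4% and 19.0% to 24.0%).

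Among the ligands, Dll1 fell, whereas neither Jagged gene passed. Dll1, the Delta ligand that maintains the progenitor pool in mouse muscle development (chromosome 17, 15587616 to 15597134), had 11.1, 10.4 and 9.88 FPKM in the TWEAK libraries, against 13.2, 12.8 and 12.2 FPKM in the untreated ones. Every TWEAK library was lower than every untreated one, and trial 1 was the highest in both groups. The log2 fold change was -0.26 (SE 0.07, limma adjusted p = 0.0364) and changed little after the length adjustment, to -0.27 (limma adjusted p = 0.0270). Leaving out any 1 library other than TWEAK replicate 1 ended the call (limma adjusted p between 0.0539 and 0.137).

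Jag2 (chromosome 12, 112871439 to 112893396), nearly as abundant per length as Dll1, had 9.84, 9.02 and 10.1 FPKM in the TWEAK libraries, against 10.7, 10.7 and 9.62 FPKM in the untreated ones. The groups overlapped, and trial 3 ran opposite to trials 1 and 2 (log2 fold change -0.09, SE 0.08, limma adjusted p = 0.463). Jag1 (chromosome 2, 136923376 to 136958564) was the lowest ligand, with 2.58, 2.79 and 2.89 FPKM in the TWEAK libraries, against 2.29, 2.36 and 3.15 FPKM in the untreated ones. Both the lowest and the highest Jag1 value were those of untreated libraries, and the log2 fold change was 0.07 (SE 0.10, limma adjusted p = 0.707). The ligand transcripts summed to 22.9 ± 0.675 FPKM with TWEAK and 25.7 ± 0.668 FPKM without (SD, n = 3 per group). Dll1 held 43.1% to 47.2% of the sum in TWEAK libraries and 48.8% to 50.3% in untreated ones.

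Rbpj, the factor through which all mammalian NOTCH receptors reach DNA (chromosome 5, 53623494 to 53814704), was the member that rose. It had 6.84, 7.37 and 5.54 FPKM in the TWEAK libraries, against 5.05, 4.98 and 4.56 FPKM in the untreated ones. The groups did not overlap, and TWEAK replicate 3 was the nearest to the untreated libraries. Its log2 fold change was 0.37 (SE 0.10). The limma adjusted p was 0.0382, and it was 0.00241 in the block model. After the length adjustment the rise was 0.41 on the log2 scale (limma adjusted p = 0.0148). Of the 6 fits that left out 1 library, only the one without TWEAK replicate 3 kept the call, and the other 5 gave limma adjusted p values between 0.0789 and 0.147.

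The HES and HEY transcripts spanned the widest range of levels. Heyl, a HEY-family repressor induced by Notch in muscle progenitors (chromosome 4, 123127349 to 123143668), was the lowest member in TWEAK libraries, with 2.23, 1.54 and 1.73 FPKM, against 4.26, 3.32 and 3.23 FPKM in untreated ones. These values rest on 308, 243 and 234 reads with TWEAK and on 640, 495 and 595 reads without. The groups were well apart, with every TWEAK library under every untreated one. The log2 fold change was -0.70 (SE 0.12, limma adjusted p = 0.00572), and -0.69 after the length adjustment. Heyl kept its call in all 6 fits that left out 1 library (limma adjusted p between 0.00294 and 0.0250). Adding 1 to FPKM shrinks the fold of a gene at this level, and without it the log2 fold change was -0.98 in limma-voom on recovered reads and also -0.98 in the authors' deposited table.

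Hes6 (chromosome 1, 91339205 to 91341760) was the most abundant member. It had 125, 111 and 126 FPKM in the TWEAK libraries, against 165, 163 and 135 FPKM in the untreated ones. The groups did not overlap, and untreated replicate 3 lay nearest to the TWEAK libraries. The log2 fold change was -0.35 (SE 0.10, limma adjusted p = 0.0366), and by trial it was -0.40, -0.56 and -0.10. After the length adjustment it was -0.43 (limma adjusted p = 0.0155). Without TWEAK replicate 2 or untreated replicate 1 or 2 it did not pass (limma adjusted p between 0.128 and 0.146).

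Hes1, the repressor that is the best known direct target of Notch (chromosome 16, 29883202 to 29886614), had 16.8, 16.7 and 21.8 FPKM in the TWEAK libraries, against 18.9, 21.2 and 24.9 FPKM in the untreated ones. Trial 3 was the highest in both groups, and the groups overlapped. The log2 fold change was -0.23 (SE 0.12, limma adjusted p = 0.252), and the 3 trials gave -0.16, -0.33 and -0.18. With the replicate block the limma adjusted p was 0.0181, and with the block and the length adjustment it was 0.00294, at a log2 fold change of -0.30.

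**Figure D3:**
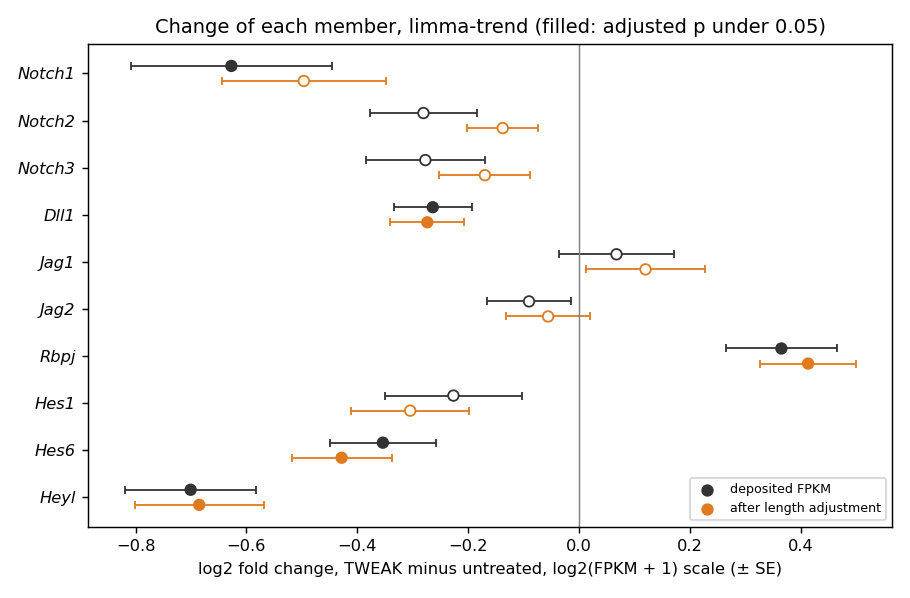
Difference of each member, TWEAK minus untreated, in log2(FPKM + 1) (horizontal axis) with its SE from limma-trend, on the deposited FPKM and after the length adjustment; filled points passed an adjusted p of 0.05. The adjustment moves Notch1, Notch2 and Notch3 towards 0 and moves Hes1 and Hes6 away from it, while Dll1, Rbpj, Hes6 and Heyl stay filled.

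The order of levels per length was alike at the top in both groups, where Hes6, Hes1, Notch2, Dll1, Jag2 and Notch3 were ranked 1 to 6. In TWEAK libraries these were followed by Rbpj at 6.59 ± 0.940, Notch1 at 4.27 ± 1.23, Jag1 at 2.75 ± 0.155 and Heyl at 1.83 ± 0.357 FPKM (SD, n = 3). In untreated libraries they were followed by Notch1 at 7.08 ± 1.43, Rbpj at 4.86 ± 0.268, Heyl at 3.61 ± 0.571 and Jag1 at 2.60 ± 0.479 FPKM (SD, n = 3). The neighbours whose library ranges overlapped were Dll1 and Jag2 and also Notch3 and Rbpj with TWEAK, and Notch3 and Notch1 without. A set of 6 ratios between members within a library was also taken, chosen after the values were seen. Such ratios do not depend on how libraries are scaled. They were taken without the length adjustment, so a library's trend with gene length remains in them where lengths differ. The Dll1 to Jag2 ratio was 1.13, 1.15 and 0.974 in TWEAK libraries, against 1.23, 1.20 and 1.27 in untreated ones. The Notch1 to Notch3 ratio was 0.670, 0.668 and 0.508 in TWEAK libraries, against 0.895, 0.898 and 0.700 in untreated ones. These were the pairs without overlap, each at the smallest p that 3 libraries against 3 allow (two-sided exact permutation p = 0.1, adjusted p = 0.24 over 6 ratios). The Heyl to Hes1 ratio was lower with TWEAK in 3 of 3 trials, at 0.102 ± 0.0281 with TWEAK and 0.171 ± 0.0496 without (SD, n = 3 per group; two-sided exact permutation p = 0.2, adjusted p = 0.24), and its groups overlapped. The Notch1 to Notch2 and Dll1 to Jag1 ratios were likewise lower in 3 of 3 trials with overlapping groups and the same p. The Hes6 to Hes1 ratio was 6.62 ± 0.855 with TWEAK and 7.29 ± 1.70 without (SD, n = 3 per group), lower in 2 of 3 trials (two-sided exact permutation p = 0.7, adjusted p = 0.7).

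The promoters of the members that changed are shown because these genes differ in direction and because RBPJ, N-box and E-box letters are the ones that RBPJ, HES proteins and the myogenic bHLH factors are known to bind. RefSeq promoter windows on GRCm38.p6 matched 8 of the 10 members (not Hes1 and Heyl), in 11 windows. These coordinates are of that build and are not those of the deposited table. The first listed window of each changed member is given as the 250 bases before its start, with the RBPJ core (TGGGAA, or TTCCCA on the other strand) in capitals.
Rbpj (chr5:53590096-53590345, GRCm38.p6, plus strand): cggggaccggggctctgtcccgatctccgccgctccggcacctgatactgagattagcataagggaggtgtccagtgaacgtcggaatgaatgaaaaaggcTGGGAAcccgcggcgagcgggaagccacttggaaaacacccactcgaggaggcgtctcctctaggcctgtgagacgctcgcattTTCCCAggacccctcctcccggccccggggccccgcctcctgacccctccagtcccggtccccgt
Notch1 (chr2:26503823-26504072, GRCm38.p6, minus strand): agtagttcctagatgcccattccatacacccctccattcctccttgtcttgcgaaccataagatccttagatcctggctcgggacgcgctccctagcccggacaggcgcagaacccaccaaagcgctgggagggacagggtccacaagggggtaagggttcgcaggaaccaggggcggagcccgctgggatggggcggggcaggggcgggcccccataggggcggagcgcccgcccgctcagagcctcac
Dll1 (chr17:15375824-15376073, GRCm38.p6, minus strand): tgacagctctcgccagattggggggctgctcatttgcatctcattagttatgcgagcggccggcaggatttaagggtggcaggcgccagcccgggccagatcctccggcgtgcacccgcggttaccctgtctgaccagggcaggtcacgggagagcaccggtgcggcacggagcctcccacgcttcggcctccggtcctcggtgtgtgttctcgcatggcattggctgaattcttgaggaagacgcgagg
Hes6 (chr1:91414039-91414288, GRCm38.p6, minus strand): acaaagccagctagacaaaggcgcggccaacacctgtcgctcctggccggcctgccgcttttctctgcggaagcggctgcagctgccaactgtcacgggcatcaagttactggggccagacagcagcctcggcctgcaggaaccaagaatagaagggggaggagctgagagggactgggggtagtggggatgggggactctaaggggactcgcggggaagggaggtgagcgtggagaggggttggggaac
Rbpj, the gene that rose, carried the RBPJ core 149 and 65 bases before its start, once on each strand. Of 32851 such windows over all genes, 21.6% held the core at least once and 2.77% held it 2 times or more. Among the 11 member windows, 2 held the core, and both belonged to Rbpj and overlap each other. The N-box CACNAG stood in 4 member windows, 108 bases before the start of Notch1 among them, and in 36.7% of all windows. The E-box CANNTG stood in 6 member windows, among them 3 times in that of Hes6 printed here, 2 times in that of Rbpj and 1 time in that of Dll1, and in 66.2% of all windows. Both strands were searched, and the 3 motifs cannot match the same 6 letters.

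Outside the members, 61 further pathway genes were listed by role. Of the 47 with a mean of at least 0.5 FPKM, 3 rose and 1 fell, beside 8.98% and 6.10% of all tested genes. Their median log2 fold change was -0.02, against 0.01 for all tested genes. With the replicate block 3 were called higher and 8 lower (15.4% and 12.5% of all genes), and with the block and the length adjustment together 5 higher and 6 lower (14.8% and 13.4% of all genes). Dtx4, a Deltex-family ubiquitin ligase, was at 14.9, 14.3 and 13.6 FPKM in TWEAK libraries, against 10.1, 8.40 and 9.76 FPKM in untreated ones (a log2 difference of 0.55 with SE 0.08; limma adjusted p = 0.00316). Fbxw7, whose protein marks the active NOTCH fragment for degradation, was at 12.0, 9.87 and 10.5 FPKM with TWEAK, against 16.3, 14.9 and 14.4 FPKM without (a log2 difference of -0.46 with SE 0.09; limma adjusted p = 0.00817). Neither gene overlapped between groups, and both kept their calls in all 6 fits that left out 1 library.

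Neurl1b, a ligase that promotes ligand uptake in the sending cell, was at 1.34, 2.14 and 1.10 FPKM with TWEAK, against 0.712, 0.653 and 0.581 FPKM without (a log2 difference of 0.59 with SE 0.14; limma adjusted p = 0.0215). Its mean FPKM was 2.35-fold higher, and the log2 fold change was 1.07 with 0.1 added to FPKM and 1.20 in limma-voom. TWEAK replicate 2 was the highest by far, and the call was lost without untreated replicate 2 or 3 (limma adjusted p = 0.0727 and 0.0686). Kat2a, an acetyltransferase that can serve as a co-activator, was 1.19-fold higher (limma adjusted p = 0.0396), and the call was lost in all 6 fits that left out 1 library. Among 9 tested genes of receptor cleavage (ADAM proteases, furin and gamma-secretase), and among 4 of receptor glycosylation, limma-trend called 0, with 0 at an unadjusted p under 0.05 and 0 in limma-voom. In limma-trend without the block or the length adjustment, Neurl1b was the 1 call among 4 genes of ligand ubiquitylation. Kat2a was the 1 among 8 co-activators there, and Dtx4 and Fbxw7 were the calls among 8 inhibitors and other regulators. After the length adjustment the co-activator Maml3, a gene of 8288 bases, was also called higher (limma adjusted p = 0.0475, and 0.0271 with the block). Without that adjustment its limma adjusted p was 0.341. With the replicate block the co-activators Ep300 and Kat2b were also called, both lower (limma adjusted p = 0.0111 and 0.0214). For Ep300, a gene of 9566 bases, the limma adjusted p was 0.0618 with the block and the length adjustment, and limma-voom without the block called Kat2b (limma adjusted p = 0.0441). Of 13 tested co-repressor genes 0 passed in limma-trend and in limma-voom, and 3 had an unadjusted p under 0.05.

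**Figure D4:**
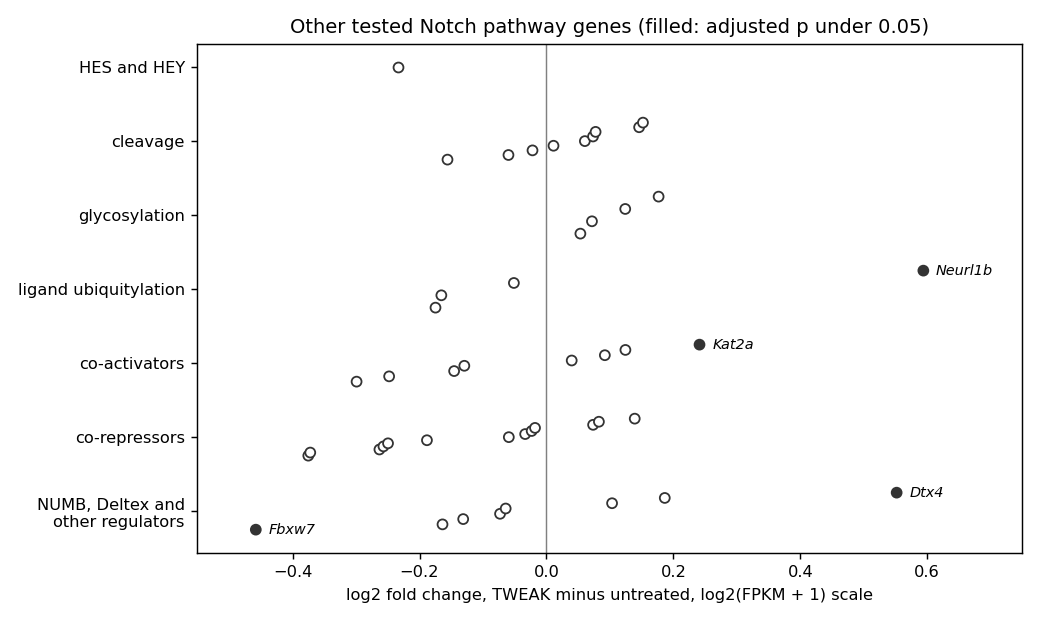
Difference, TWEAK minus untreated, in log2(FPKM + 1) (horizontal axis) for the 47 tested pathway genes outside the members, in rows by role; filled points passed an adjusted p of 0.05 in limma-trend. Neurl1b, Dtx4 and Kat2a lie right of 0 and Fbxw7 left of it, and the other 43 points are open.

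Other receptors, ligands and effectors were scarce. Hey1, another HEY repressor gene, was at 1.55, 1.25 and 1.40 FPKM with TWEAK, against 2.25, 1.67 and 1.58 FPKM without, and did not pass (a log2 difference of -0.23 with SE 0.11; limma adjusted p = 0.177). Its groups did not overlap, and it was lower in 3 of 3 trials. In the block model the limma adjusted p was 0.0605, and with the block and the length adjustment together 0.0232. Notch4, Dll3, Dll4, Hes2, Hes3, Hes7, Hey2 and Dtx1 stayed at or under 0.150 FPKM in all 6 libraries, Dlk1, Hes5 and Rbpjl were listed at 0, and Dlk2 and Aph1c reached 0.631 and 0.240 FPKM. Mfng, a Fringe glycosyltransferase that tunes which ligands a receptor answers to, lay below the expression minimum with 31 reads in TWEAK libraries and 3 in untreated ones (ratio of pooled reads 11.6 after scaling for depth, 95% exact binomial interval 3.61 to 59.2, counting error only). It reached 0.231 FPKM at most.

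The labels give the cell type as myoblast and the treatment text speaks of myotubes. Of 8 differentiated muscle markers, all above the expression minimum, 2 fell, Ttn and Myh3. Myog, Des and Mymk were higher in 3 of 3 trials without overlap of the groups, and Acta1 was likewise lower, but none of these passed. Ttn has 107355 bases, and its log2 fold change of -0.69 became -0.25 after the length adjustment (limma adjusted p = 0.0338). With that adjustment Acta1 was also called lower (limma adjusted p = 0.0288). The markers' summed level, with Acta1 the largest part, was 8770 to 9795 FPKM with TWEAK and 9561 to 10644 FPKM without. Of 5 markers of undifferentiated or reserve myoblasts, Cd34 and Msc rose and Myf5 fell. Msc, at 0.382 to 0.906 FPKM, did not pass after the length adjustment (limma adjusted p = 0.0691, and 0.0447 with the block). Cd34 and Myf5 still passed after it (limma adjusted p = 0.0137 and 0.00631). The 5 markers summed to 102 to 145 FPKM with TWEAK and 76.4 to 107 FPKM without. That sum was mostly Sdc4, at 90.9 ± 17.4 FPKM with TWEAK and 73.0 ± 13.1 FPKM without (SD, n = 3 per group; limma adjusted p = 0.212, and 0.00286 in the block model). Myf5 was at 3.39, 3.09 and 2.80 FPKM with TWEAK, against 4.85, 4.56 and 4.58 FPKM without. Pax7 was at 1.90, 1.59 and 1.32 FPKM with TWEAK, against 2.79, 2.35 and 1.93 FPKM without (limma adjusted p = 0.0704). It was lower in 3 of 3 trials and passed in the block model and in limma-voom (limma adjusted p = 0.00400 and 0.0487). The part of these shifts in the members' values was not tested. Endothelial and adipocyte markers summed to at most 0.104 and 0.0418 FPKM in any library, with Tie1, Plin1 and Cfd at 0. The mural and leukocyte lists summed to at most 5.83 and 1.65 FPKM, carried mostly by Cspg4 and Cd68, while the defining markers Rgs5 and Ptprc stayed under 0.1 FPKM.

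In the authors' deposited table, whose mean count is above 0 for 2337 genes listed at 0 in all 6 libraries, 4 members are lower and 1 is higher at an adjusted p of 0.05, against 9.38% and 11.2% of its genes with an adjusted p (20.6% in both directions). Notch2 is among the lower ones there (log2 fold change -0.29, adjusted p = 0.0156) and Notch1 is not (log2 fold change -0.73, adjusted p = 0.0796). In the same deposited table Rbpj has an adjusted p of 0.00144 and Hes6 one of 0.00730. Genes that overlap Notch1, Notch2, Notch3 or Rbpj in the table stood at 0.586 FPKM or less, and the use of strand in counting is not given in the sources used here.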

How the data were processed

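The tools named in the submitters' processing notes are DESeq2 1.22.2, HTSeq 0.6.1p2, STAR 2.6.0c and Trim Galore 0.5.0, and the build is GRCm39, with settings and annotation release not given in the sources used here. Per the file headers, the deposited table holds FPKM per library and the authors' comparison: a log2 fold change with its standard error, a test statistic (a score), p-values, and a mean normalized count (a signal over all libraries of the authors' fit). That mean is above 0 for 2337 genes at 0 in all 6 libraries. The number of per-sample columns without a sample was 0.

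FPKM above 0 came out as whole reads for 126386 of 126386 values (relative tolerance 1e-06), which also gave gene lengths; for 273 tested genes a common factor was chosen from the authors' mean, an assumption. Genes with a mean of at least 0.5 FPKM were tested with limma 3.58.1 (R 4.3.3, lmFit and eBayes with trend, pseudocount 1, group as the only term, two-sided). The fit was checked on simulated data with independent noise. Those data held no trial effect and no trend with gene length, so the check does not bear on either. The length adjustment subtracted a lowess curve (span 0.3) on log2 length from each library. Python 3.11.15 with pandas 2.3.3, scipy 1.17.1 and matplotlib 3.10.9 did the rest.

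Trial numbers were treated as pairing the libraries in the block model and in comparisons by trial, and the main fit did not use them. The evidence for pairing comes from these same values and not from the labels. Each library's deviations from its group mean correlated with those of the same-numbered library at 0.473, 0.218 and 0.434. Between differently numbered libraries of the groups the correlations ran from -0.406 to -0.02. Deviations within a group sum to 0, so higher values in some pairs force lower ones in others. They were taken without the length adjustment, so each library's trend with gene length remains in them. The members and lists were chosen with earlier results of these data known, and the members are all well above the expression minimum. Named outside the members were the listed genes that passed, the untested ones, and others chosen after their values were seen. A member of those pathway lists is left out of the text. Alternatives were the pseudocount, the filter, scaling to equal sums, the block, limma-voom on recovered reads, and leaving out each library.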

Additional observations from a re-analysis of the deposited data

How the results depend on the processing

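All 10 members kept their direction in the 14 alternatives, which gave 140 member values: 108 stayed on the same side of the threshold, 27 lost a call and 5 gained one. Heyl lost its call only without a filter on low values (limma adjusted p = 0.0528); that setting tested 26302 genes, called 801 in all and 0 members (7 at an unadjusted p under 0.05, and 5 called by limma-voom with the filter). Scaling to equal sums left 2 members called, Hes6 and Heyl. With the replicate block 3563 genes, 8 members and 11 further pathway genes passed; with the block and the length adjustment 3592 genes and 11 further pathway genes passed (3 higher and 8 lower with the block alone, 5 and 6 with both). A pseudocount of 0.1 ended the Notch1 call (limma adjusted p = 0.0501).

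Across the 6 fits without 1 library, 844 to 2101 genes, 1 to 5 members and 2 to 3 further pathway genes passed; the lowest count of the pathway genes, 2, was without untreated replicate 2. The count of members was 1 without TWEAK replicate 2, untreated replicate 1 or untreated replicate 2, and 3 without TWEAK replicate 3 or untreated replicate 3. The count of all genes was 844, 1099 and 1104 without TWEAK replicate 2, untreated replicate 1 and untreated replicate 2. Without TWEAK replicate 1, Notch3 passed (limma adjusted p = 0.0274). The cause of these losses was not tested. Each member had at least 234 reads in every library.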
